A study of Mus musculus with 6 samples.

Results

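Transcript levels of asparagine synthetase (Asns) and 9 plasma membrane amino acid transporter genes (Slc7a1, Slc7a3, Slc7a5, Slc7a11, Slc3a2, Slc38a2, Slc1a4, Slc1a5 and Slc6a9) were read by symbol from 1 table of 25164 genes, and all 10 were found. Whole ovaries of C57BL/6 mice at day 1, as the sample titles give it, were sequenced in 3 libraries labelled hnRNPL flox/flox;Stra8-cre (cKO) and 3 labelled wild type. The strain and the tissue were shared by both groups, and the same protocol text, which speaks of an unspecified hormone challenge, stands on every sample. Stra8-cre expresses Cre recombinase in germ cells, while the libraries hold RNA of all cells of the ovary. The labels name no animal, litter or pool for any library, so that the spread behind each p-value may be technical. Values are FPKM, fragments per kilobase of transcript scaled to the number of mapped fragments, as the authors computed them. The series concerns hnRNPL, a regulator of alternative splicing, and the formation and activation of primordial follicles.

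Asparagine synthetase makes asparagine from aspartate with glutamine as the nitrogen donor. When an amino acid is scarce, or when another stress leads to phosphorylation of the initiation factor eIF2, translation of the transcription factor ATF4 increases, and ATF4 with C/EBP partners activates Asns and several amino acid transporter genes through C/EBP-ATF response elements. Oocytes take up amino acids through their own carriers and through gap junctions with the granulosa cells around them. The transporters studied here are exchangers of large neutral amino acids or cystine (Slc7a5 or Slc7a11 with the shared heavy chain Slc3a2), carriers of cationic amino acids (Slc7a1 and Slc7a3), and sodium-coupled carriers of small neutral amino acids and glutamine (Slc38a2, Slc1a4 and Slc1a5) or glycine (Slc6a9).

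The smallest steps of the deposited values gave an estimate of depth; cKO replicate 1 was the shallowest library (7200000 fragments) and wild type replicate 1 the deepest (14400000), so that 1 FPKM of a transcript of 2 kb stood for about 14.4 to 28.8 fragments. The library cKO replicate 1 stood apart: its median over the tested genes lay at 8.40 FPKM, and those of the other 5 at 6.85 to 7.09 FPKM. Median-of-ratios scaling divided it by 1.18 and the other libraries by 0.949 to 0.989, and scaled values below carry that division. Hnrnpl, the targeted gene, was measured at 101, 81.5 and 85.2 FPKM in cKO and at 104, 93.8 and 102 FPKM in wild type, where cKO replicate 1 overlapped the wild type range. After scaling it stood at 85.5, 84.2 and 87.5 in cKO and at 105, 95.4 and 107 in wild type, with every cKO library lower. A gene-level value of a whole ovary is a weak check of the labels, because somatic cells also express the gene and the floxed exons are not seen apart. Ovarian markers were present, with Foxl2, a granulosa cell transcription factor, at 64.9 to 86.5 FPKM in cKO and 57.5 to 60.2 FPKM in wild type.

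Asns was the 1 gene of the 10 that passed the test across all genes, and it was higher in every cKO library. In cKO replicates 1, 2 and 3 it stood at 24.9, 16.6 and 14.5 FPKM, and in wild type replicates 1, 2 and 3 at 5.93, 5.80 and 5.93 FPKM. The wild type libraries lay almost on each other, the groups were far from overlapping, and cKO replicate 1 was the highest. The ratio of the group means was 3.17. After scaling the cKO libraries stood at 21.2, 17.2 and 14.9 and the wild type libraries at 5.99, 5.91 and 6.24, and the ratio was 2.93. On the log2(FPKM + 1) scale, which understates changes of low values, the fold change was 1.48 (SE 0.18, limma adjusted p = 0.0437) as deposited and 1.40 (SE 0.12, limma adjusted p = 0.00708) after scaling. Of all 12442 tested genes 0.121% passed as deposited, 0.0482% higher and 0.0723% lower in cKO, and 1.29% after scaling, 0.764% higher and 0.530% lower. The call did not rest on cKO replicate 1 (log2 fold change 1.26 without it, limma adjusted p = 0.00834), but it ended without cKO replicate 2 (adjusted p = 0.136) and without wild type replicate 1, 2 or 3 (0.15, 0.156 and 0.172), with no filter on low values (0.106), with no intensity trend (0.0540) and with a replicate block (0.0720). In bulk tissue, a change in the number of cells of a type and a change in RNA per cell cannot be told apart, here and in all results that follow.

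The gene lies on chromosome 6 from 7675165 to 7693209 on the minus strand (GRCm38.p6, the build also called mm10). RefSeq promoter windows of 250 bases before to 50 after a gene's start were at hand for 7 of the 10 members, and they were searched on both strands for TGATGNAA, the core of the C/EBP-ATF response element. A match was held by 3.97% of all 32851 windows of this length, and among the members Asns, Slc7a11 and Slc1a4 did. The stretches below, from RefSeq, run from 150 bases before the start to the end of the last match, 5′ to 3′ on the gene's strand, with the matched letters in capitals; they are shown because 2 of these 3 genes had the highest log2 fold changes among the tested members, while Slc1a4 had one of -0.13.
Asns, chr6:7693225-7693359, minus strand: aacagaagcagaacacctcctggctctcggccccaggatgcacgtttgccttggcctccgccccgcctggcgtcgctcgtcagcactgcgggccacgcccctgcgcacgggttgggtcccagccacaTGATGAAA
Slc7a11, chr3:50443653-50443763, minus strand: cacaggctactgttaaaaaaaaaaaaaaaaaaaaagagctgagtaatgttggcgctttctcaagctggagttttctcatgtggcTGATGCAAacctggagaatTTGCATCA
Slc1a4, chr11:20332710-20332863, minus strand: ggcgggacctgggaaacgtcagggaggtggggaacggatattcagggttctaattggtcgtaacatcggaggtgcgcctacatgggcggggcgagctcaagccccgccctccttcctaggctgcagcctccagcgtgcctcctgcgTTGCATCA
In Asns the match read TGATGAAA on the gene strand, from base -23 to base -16 before the RefSeq start. In the GENCODE annotation of the same build the main transcript starts further upstream, and the match lies in the 5′ untranslated part of its first exon. The Slc7a11 window sits at a start inside the span that RefSeq gives for that gene. Slc7a11 held a pair of matches that face each other, on the gene strand from base -66 to -59 and on the opposite strand from base -47 to -40. In Slc1a4 the match was on the opposite strand and ran across the start, from base -4 to base 4. The windows of Slc7a1, Slc3a2, Slc38a2 and Slc6a9 did not hold these letters. A match is a description of the sequence and does not show binding.

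**Figure D1:**
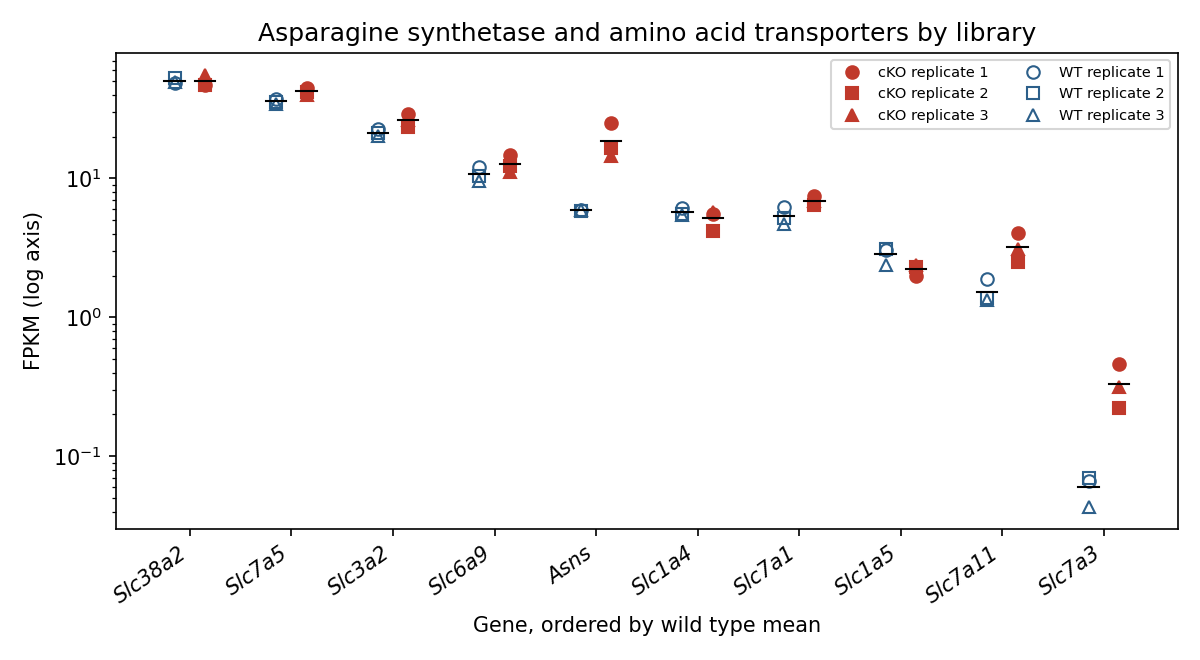
FPKM on a log axis of the 10 genes in each of the 6 libraries, wild type in open blue symbols and cKO in filled red symbols, with a black line at each group mean (n = 3) and symbol shape giving the replicate. Asns, Slc7a11 and Slc7a3 show the widest gaps between the groups, while Slc38a2, Slc1a4, Slc1a5 and Slc6a9 overlap.

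In wild type ovaries the levels, which FPKM corrects for transcript length, spread from the top to the bottom of the expressed range. Slc38a2 was the highest at 50.2 ± 1.90 FPKM (SD, n = 3), above 95.2% of the tested genes, and was followed by Slc7a5 at 35.8 ± 1.64, Slc3a2 at 21.4 ± 1.17 and Slc6a9 at 10.7 ± 1.21 FPKM. Asns at 5.88 ± 0.0702, Slc1a4 at 5.70 ± 0.339 and Slc7a1 at 5.37 ± 0.808 FPKM overlapped between libraries and could not be ordered. Slc1a5 at 2.84 ± 0.417, Slc7a11 at 1.53 ± 0.308 and Slc7a3 at 0.0597 ± 0.0144 FPKM followed, each separate from the next. In cKO the mean of Asns was 18.7 ± 5.54 FPKM (SD, n = 3), between those of Slc3a2 and Slc6a9.

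Slc7a11 (chromosome 3, 50364936 to 50499087), the light chain of the cystine and glutamate exchanger that supplies cysteine for glutathione, had the next highest log2 fold change after Asns among the 9 tested members, on the log2(FPKM + 1) scale, but did not pass. Its values were 4.03, 2.50 and 3.09 FPKM in cKO replicates 1, 2 and 3 and 1.88, 1.37 and 1.33 FPKM in wild type replicates 1, 2 and 3. All cKO libraries lay above all wild type libraries, by a ratio of the means of 2.10, or 1.95 after scaling. The log2 fold change was 0.73 (SE 0.17, limma adjusted p = 0.151) as deposited and 0.66 (adjusted p = 0.0690) after scaling, and the adjusted p ran from 0.0513 to 0.461 over 13 alternatives.

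Slc3a2 (chromosome 19, 8706882 to 8723369), the heavy chain that brings these exchangers to the cell surface, stood at 29.3, 23.4 and 26.5 FPKM in cKO and at 22.6, 21.3 and 20.2 FPKM in wild type. Slc7a5 (chromosome 8, 121881146 to 121907686), the light chain that imports leucine and other large neutral amino acids, stood at 44.7, 42.1 and 40.0 FPKM in cKO and at 37.5, 35.5 and 34.3 FPKM in wild type. For each of them the lowest cKO library was above the highest wild type library, although the gap was small: after scaling the closest values of Slc7a5 were 38.0 in both cKO replicate 1 and wild type replicate 1. Their log2 fold changes were 0.29 (SE 0.11, limma adjusted p = 0.322) and 0.23 (SE 0.10, limma adjusted p = 0.365), and 0.20 and 0.15 after scaling. With TPM rescaling, in which each library sums to the same total, Slc3a2, Slc7a5 and Slc7a1 overlapped between the groups.

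Ratios inside a library do not depend on how libraries are scaled. The ratio of Slc7a11 to Slc3a2 was 0.138, 0.107 and 0.117 in the cKO libraries and 0.0834, 0.0644 and 0.0658 in the wild type libraries, with no overlap. The difference of its mean log2 was 0.76 (exact two-sided permutation p = 0.1, the smallest that 3 against 3 libraries allow; 0.2 adjusted by Benjamini-Hochberg over the 4 ratios computed). For Slc7a5 over Slc3a2 the wild type libraries gave 1.66, 1.67 and 1.69 and the cKO libraries 1.53, 1.79 and 1.51, on either side of them (log2 difference -0.06, exact permutation p = 0.4, adjusted p = 0.4). Of the summed FPKM of the 6 light chains known to pair with Slc3a2 (Slc7a5, Slc7a6, Slc7a7, Slc7a8, Slc7a10 and Slc7a11), Slc7a5 held 71.9% to 75.3% in every library. Slc7a11 held 4.48% to 6.59% in cKO and 2.77% to 3.67% in wild type. The sum was 54.3 to 61.1 FPKM in cKO and 46.0 to 51.3 FPKM in wild type, and over Slc3a2 it came to 2.05 to 2.38 in cKO and 2.27 to 2.33 in wild type. The light chains as a sum were thus more abundant than the heavy chain in all 6 libraries, with overlapping ratios in the groups.

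**Figure D2:**
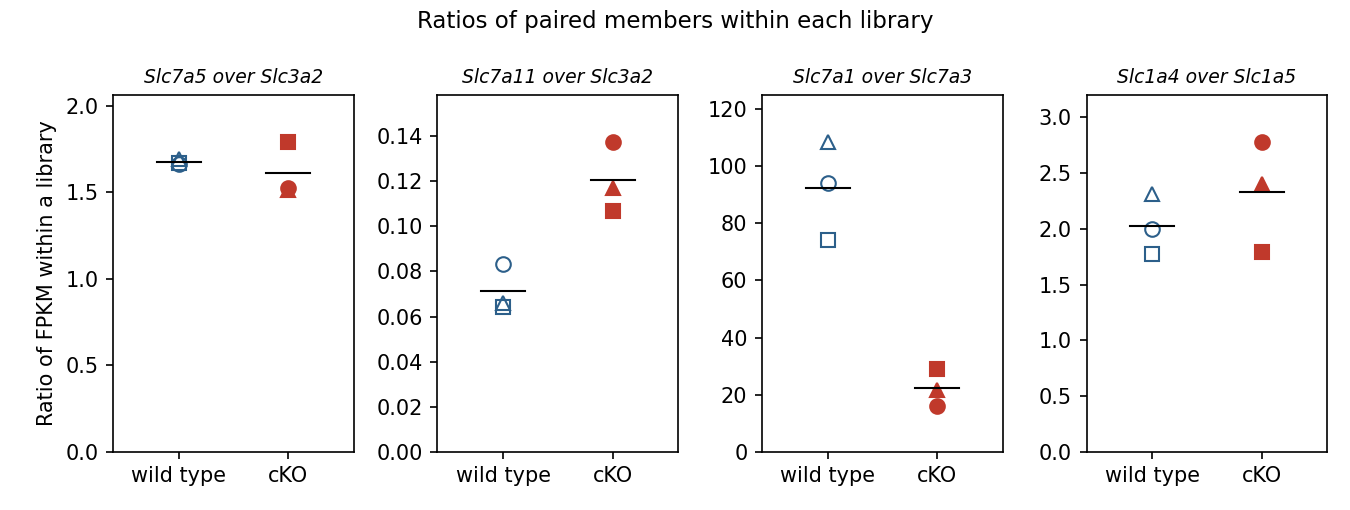
Ratio of the FPKM of 2 members inside each library, on linear axes from 0, for 4 pairs, wild type in open blue symbols and cKO in filled red symbols, with a black line at each group mean (n = 3) and symbol shape giving the replicate as in the plot of FPKM by library. The groups are apart for Slc7a11 over Slc3a2 and for Slc7a1 over Slc7a3, and overlap for the other pairs.

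Among the carriers of arginine, lysine and ornithine, Slc7a1 (chromosome 5, 148327410 to 148399904), the widely expressed form, stood at 7.49, 6.43 and 6.82 FPKM in cKO and at 6.26, 5.15 and 4.69 FPKM in wild type. The lowest cKO library was just above the highest wild type library, and its difference of 0.32 (log2, SE 0.12, limma adjusted p = 0.301) did not pass. Slc7a3 (chromosome X, 101079146 to 101090452), a related carrier, was very low: 0.464, 0.222 and 0.314 FPKM in cKO and 0.0665, 0.0696 and 0.0432 FPKM in wild type. Its average over all libraries was below 1 FPKM, so that it was left out of the main test, and in the fit with no filter its log2 fold change of 0.33 did not pass (limma adjusted p = 0.227). On that scale a gene this low can hardly change. Multiplied by the estimated depth, its 6 values were whole multiples of 1 step to within 0.026. The size of the step was chosen to make this distance smallest, so that the closeness is partly built in. There were 7, 5 and 8 steps in the cKO libraries and 2, 2 and 1 in those of wild type, and a step would be a single fragment. Summed over each group, 20 steps of 30100000 fragments in cKO against 5 of 39200000 in wild type gave a ratio of 5.21 (95% exact binomial interval 1.90 to 17.8, for counting error only). The ratio of Slc7a1 to Slc7a3 was 16.2, 29.0 and 21.7 in the cKO libraries and 94.1, 74.1 and 109 in those of wild type. The groups were apart, by a mean log2 difference of -2.07 (exact permutation p = 0.1, adjusted p = 0.2), and this rests on the few fragments of Slc7a3.

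The carriers of small neutral amino acids did not follow Asns. Slc38a2 (chromosome 15, 96687392 to 96699728), which concentrates alanine, serine and glutamine and is known to respond to amino acid shortage, stood at 47.3, 46.6 and 55.8 FPKM in cKO and at 48.9, 52.4 and 49.3 FPKM in wild type. The cKO values were found on both sides of those of the controls, and the difference was -0.01 (log2, SE 0.12, limma adjusted p = 0.968). Slc1a4 (chromosome 11, 20302180 to 20332713), an exchanger of alanine, serine, cysteine and threonine, stood at 5.57, 4.16 and 5.77 FPKM in cKO and at 6.09, 5.53 and 5.47 FPKM in wild type, with overlap and a difference of -0.13 (log2, SE 0.13, limma adjusted p = 0.654).

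Slc1a5 (chromosome 7, 16781334 to 16798274), its relative that exchanges glutamine, stood at 1.9998, 2.32 and 2.40 FPKM in cKO and at 3.05, 3.12 and 2.36 FPKM in wild type. Only wild type replicate 3 reached into the cKO range, and after scaling the groups were apart by a narrow gap, with 2.46 as the highest cKO value and 2.49 as the lowest wild type value. A difference of -0.24 (log2, SE 0.13, limma adjusted p = 0.436) did not pass. Slc1a4 over Slc1a5 was 2.78, 1.80 and 2.40 in the cKO libraries and 1.999, 1.77 and 2.32 in those of wild type, with overlap (log2 difference 0.18, exact permutation p = 0.4, adjusted p = 0.4).

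Slc6a9 (chromosome 4, 117835258 to 117869305), a sodium- and chloride-coupled glycine transporter, stood at 14.8, 12.3 and 11.04 FPKM in cKO and at 12.02, 10.4 and 9.65 FPKM in wild type. The highest wild type library was above the lowest cKO library. Its log2 fold change was 0.23 (SE 0.13, limma adjusted p = 0.465), and 0.14 after scaling.

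Taking the members as a list, 1 of the 9 tested rose, none fell and 8 did not pass (limma). At an unadjusted p under 0.05, 4 were higher (Asns, Slc7a11, Slc7a1 and Slc3a2) and 0 lower, where 9.89% and 4.26% of all tested genes were. The median log2 fold change was 0.23, against 0.08 over all tested genes; after scaling it was 0.15 against 0.00. The groups did not overlap, with cKO higher, in 5 of the 9 (Asns, Slc7a11, Slc7a1, Slc3a2 and Slc7a5), as in 15.5% of all tested genes, and after scaling in the same 5, as in 12.6%. With TPM rescaling 2 of the 9, Asns and Slc7a11, were left higher without overlap, as were 4.83% of all tested genes, an alternative chosen after seeing the data. None of the 9 was lower without overlap as deposited, as were 7.03% of all tested genes, and after scaling 1, Slc1a5, was, as were 13.0%; with TPM rescaling Slc1a5 was also the 1 lower, as were 19.9%. Slc7a3, which was not tested and is in none of these counts, was also higher in every cKO library on all 3 scales. The members were chosen with earlier results of these data known, so that these counts and medians are no independent support for a change of the list.

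**Figure D3:**
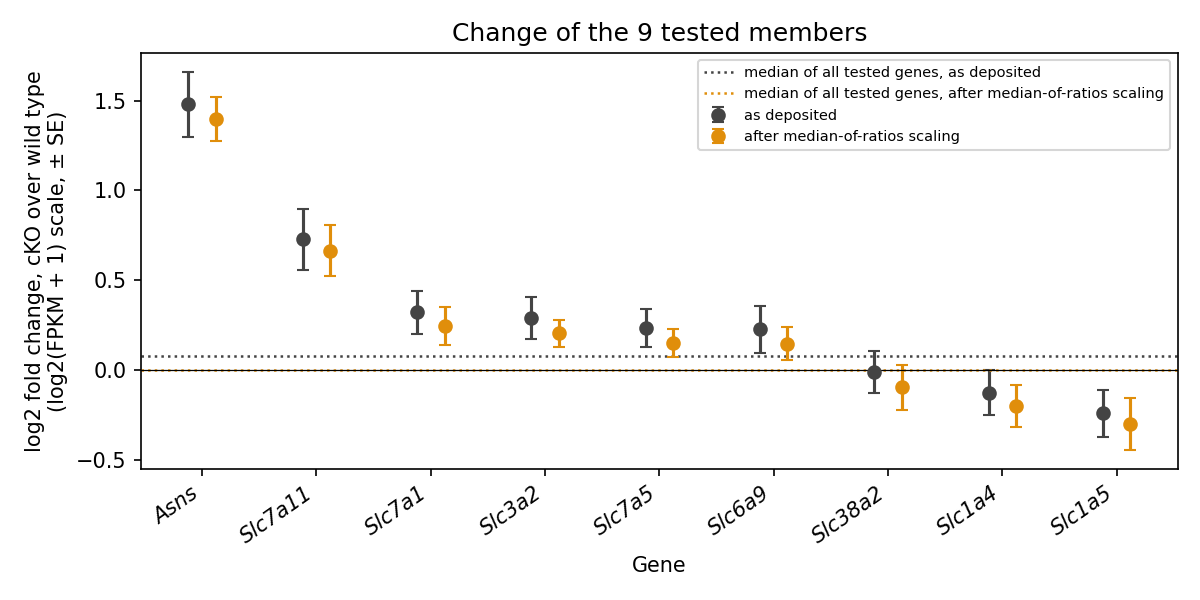
Log2 fold change of cKO over wild type (log2(FPKM + 1) scale, bars show SE) of the 9 tested members, as deposited in grey and after median-of-ratios scaling in orange, with dotted lines at the median of all tested genes. Asns stands at 1.48 and 1.40, Slc7a11 at 0.73 and 0.66, and the other 7 lie between -0.30 and 0.32.

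By Pearson's r of log2(FPKM + 1) over the 6 libraries, the genes most like Asns among 11961 others were Lonrf3, Jade3, Fam199x, Gabra3 and Tdrd7, with r of 0.997 to 0.999. Lonrf3, for example, stood at 21.7, 17.2 and 14.9 FPKM in cKO and at 8.41, 8.43 and 8.56 FPKM in wild type. In all 255 genes had an r above 0.95, and because the 6 libraries fall into 2 groups the measure mostly follows the difference between them.

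Of 42 other genes from solute carrier families that hold amino acid transporters, all in the table, 19 were tested. None of the 19 passed by limma, as deposited or after scaling. The list also holds genes, such as Slc43a3, that are not established plasma membrane carriers of amino acids. At an unadjusted p under 0.05 (limma), 0 were higher and 2 lower in cKO, where 9.89% and 4.26% of all tested genes were. The 2 were Slc6a6 and Slc43a3. The median log2 fold change of the 19 was -0.10. Without overlap, 5 of the 19 were lower in cKO and 0 higher, where 7.03% and 15.5% of all tested genes were. After scaling 6 were lower and 0 higher, where 13.0% and 12.6% of all tested genes were. Slc6a6, the taurine transporter, stood at 15.4, 12.5 and 14.3 FPKM in cKO and at 19.2, 17.1 and 17.4 FPKM in wild type (log2 fold change -0.33, limma adjusted p = 0.254). Slc43a3 and Slc7a2, a further carrier of cationic amino acids, had log2 fold changes of -0.26 and -0.21 (limma adjusted p = 0.301 and 0.374). For Slc7a2 the groups were apart with cKO lower, at 11.6 ± 0.354 against 13.6 ± 0.944 FPKM (SD, n = 3), whereas Slc7a1 was apart with cKO higher.

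Genes of amino acid synthesis and interconversion were tested in 22 of 30 cases, with a median log2 fold change of 0.12. None passed as deposited by limma. At an unadjusted p under 0.05 (limma), 4 were higher and 0 lower in cKO, where 9.89% and 4.26% of all tested genes were. Without overlap, 6 of the 22 were higher and 2 lower in cKO, where 15.5% and 7.03% of all tested genes were. After scaling 4 were higher and 4 lower, where 12.6% and 13.0% of all tested genes were. Psat1, an aminotransferase of serine synthesis, rose after scaling (limma adjusted p = 0.0423), as did 0.764% of all tested genes. Psat1 stood at 32.2, 24.9 and 17.3 FPKM in cKO and at 12.8, 12.1 and 9.29 FPKM in wild type, and its change as deposited was 1.03 (log2, limma adjusted p = 0.131). Gpt2, the mitochondrial alanine aminotransferase, stood at 3.74, 3.73 and 3.13 FPKM in cKO and at 1.95, 1.89 and 2.07 FPKM in wild type (log2 fold change 0.61, limma adjusted p = 0.101). Phgdh, the first enzyme of serine synthesis, and Shmt2, which makes glycine in mitochondria, had log2 fold changes of 0.55 and 0.43 (limma adjusted p = 0.233 and 0.290).

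The integrated stress response list holds the eIF2 kinases, an eIF2 subunit, ATF4, some of its known targets and other genes of the response, but no member. Of its 24 tested genes 2 rose and none fell by limma, and the median log2 fold change was 0.20. Over all tested genes 0.0482% rose and 0.0723% fell. After scaling 5 rose, as did 0.764% of all tested genes. With limma, 9 were higher and 0 lower in cKO at an unadjusted p under 0.05, where 9.89% and 4.26% of all tested genes were. The 2 that rose as deposited were Nupr1 and Mthfd2, with log2 fold changes of 1.91 and 1.55 (limma adjusted p = 0.0437 for both). Chac1 and Trib3, targets of ATF4 and its partners, had 1.41 and 1.18 (limma adjusted p = 0.0708 and 0.0752). Sesn2, a leucine sensor and target of ATF4, had 0.61 (limma adjusted p = 0.127), and these 3 passed after scaling (0.0288, 0.0317 and 0.0387). Atf4 itself had 0.31 (limma adjusted p = 0.373). Other genes of the list did not rise: Atf3, Ddit3 and Ppp1r15a had -0.22, 0.02 and 0.07 (limma adjusted p = 0.505, 0.972 and 0.773). Of the 24 log2 fold changes, 20 were above 0 and 4 below. Without overlap, 11 of the 24 were higher in cKO and 0 lower, where 15.5% and 7.03% of all tested genes were. After scaling 10 were higher and 1, Atf3, was lower, where 12.6% and 13.0% of all tested genes were. Earlier results of these data on this list were known when the members were chosen, so it is no independent support for them.

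Genes by which amino acids are sensed at mTORC1, the kinase complex that couples amino acid supply to growth, were tested in 25 of 26 cases. Their median log2 fold change was 0.20, and none passed as deposited by limma. With limma, 6 were higher and 0 lower in cKO at an unadjusted p under 0.05, where 9.89% and 4.26% of all tested genes were. After scaling 1 of them, Sesn2, rose, as did 0.764% of all tested genes. The next by p were Fnip2, at 5.90, 6.66 and 5.60 FPKM in cKO against 4.20, 4.08 and 4.13 FPKM in wild type (log2 fold change 0.46, limma adjusted p = 0.133), and Wdr24, a GATOR2 subunit (0.42, limma adjusted p = 0.167). Without overlap, 9 of the 25 were higher and 2 lower in cKO, where 15.5% and 7.03% of all tested genes were. After scaling 8 were higher and 4 lower, where 12.6% and 13.0% of all tested genes were.

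**Figure D4:**
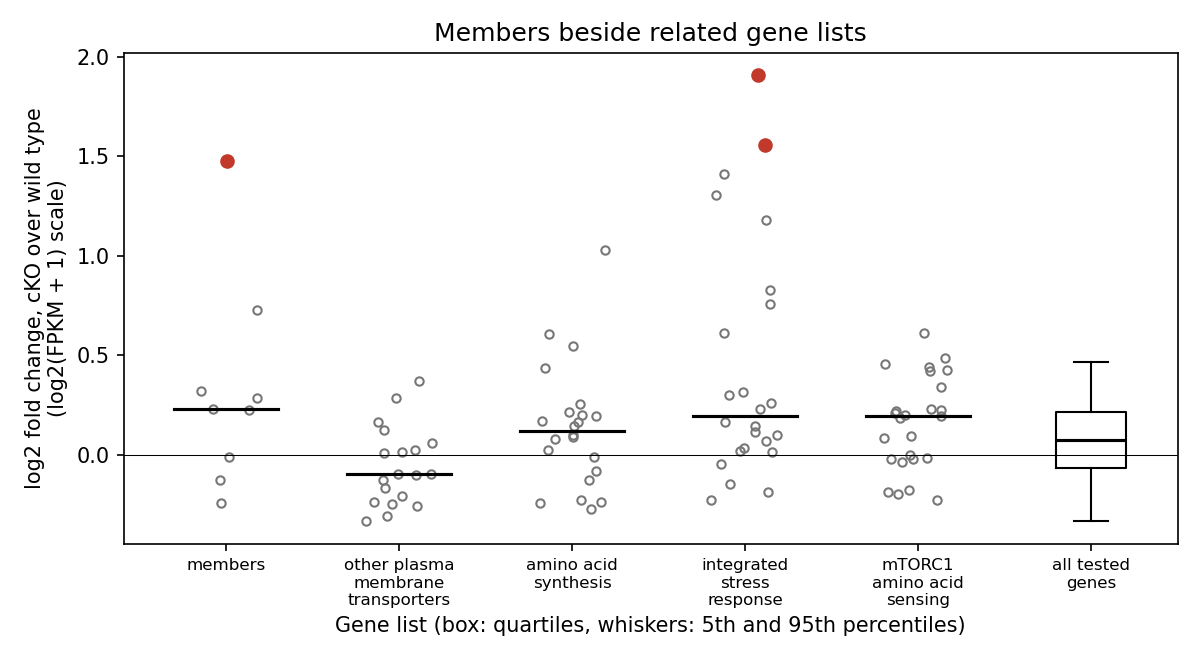
Log2 fold change of cKO over wild type (log2(FPKM + 1) scale) of each tested gene in the members and 4 related lists, filled red where the limma adjusted p was under 0.05, with a black line at each list's median, beside a box of all 12442 tested genes (quartiles, whiskers at the 5th and 95th percentiles). The medians are 0.23 for the members, -0.10 for other transporters, 0.12 for synthesis, 0.20 for the stress response and 0.20 for mTORC1 sensing.

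Summed levels of cell type markers were separate between the groups for some cell types and overlapped for others, and the sums were not tested. The summed level of 20 germ cell and oocyte markers was 231 to 404 FPKM in cKO and 207 to 250 FPKM in wild type, with overlap. Of the 18 tested, 7 were higher and 4 lower without overlap, where 15.5% and 7.03% of all tested genes were. After scaling 7 were higher and 5 lower, where 12.6% and 13.0% of all tested genes were. Dazl stood at 39.0, 27.6 and 16.8 FPKM in cKO and at 9.65, 11.97 and 9.34 FPKM in wild type. Zp3 stood at 2.05, 2.41 and 2.12 FPKM against 9.47, 9.63 and 5.69 FPKM. Pregranulosa and granulosa markers summed to 343 to 426 FPKM in cKO and 332 to 341 FPKM in wild type, or 354 to 362 against 338 to 354 after scaling, where the ranges met. Sums were lower in cKO for stroma (981 to 1111 against 1205 to 1259 FPKM, 10 markers), surface epithelium (257 to 360 against 381 to 400 FPKM, 10 markers) and erythroid cells (464 to 535 against 773 to 838 FPKM, 9 markers). They overlapped for endothelium (85.3 to 110 against 107 to 136 FPKM, 10 markers; lower in cKO after scaling, 88.1 to 93.3 against 112 to 138) and for macrophages and leukocytes (17.3 to 21.5 against 19.8 to 27.8 FPKM, 10 markers). No marker was at 0 in all libraries. Which of these cells express Asns and the transporters was not measured here, and the part of cell composition in the values above was not tested.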

How the data were processed

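The authors deposited 1 table of FPKM values per gene and library, and the column names matched the sample titles. Per the submitters' processing notes, the build was mm10 and featureCounts 2.0.6, HISAT2 2.2.1 and STAR 2.7.11a were used, with no roles given; the program that computed FPKM and the annotation are not given in the sources used here. All 12442 genes whose mean over the 6 libraries reached 1 FPKM were tested on log2(FPKM + 1). The test was limma's (3.58.1, run under R 4.3.3), two-sided and with an intensity trend, with Benjamini-Hochberg adjustment over all of them, called at an adjusted p under 0.05. The steps were tested on simulated data with 200 of 12442 genes changed. Of these 200, 0% were recovered at a 1.5-fold change, 75% at 2-fold and 92% at 3-fold. These folds were set on the log2(FPKM + 1) scale, where the same ratio of FPKM is a smaller change in a low gene. Genes were drawn independently, without a shift shared by a whole library. A gene that did not pass is therefore not shown to be unchanged. Depth was estimated from FPKM steps in 2437 genes with 1 annotated transcript of at least 1500 bases, assuming fragments of 200 bases; 72.7% to 80.1% of low values then lay within 0.15 of a whole fragment. The members and gene lists were chosen with earlier results of these data known. All members are named, with the genes of smallest p in each related list and the 5 genes most like Asns. Atf4, Atf3, Ddit3 and Ppp1r15a of the stress response list are named besides. Older symbols were matched through RefSeq synonyms. The labels name no pairing, and the main fit has no replicate block. A fit with a replicate block was run as an alternative. Same-numbered libraries deviated together weakly at most (r of -0.01 to 0.07), which cannot decide the pairing with so few libraries.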

Additional observations from a re-analysis of the deposited data

How the results depend on the processing

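Of the 14 alternatives, 7 kept the call of Asns and 7 ended it, while its log2 fold change stayed between 1.26 and 1.63. The number of members called was 0 with no filter, with no intensity trend and with a replicate block, and from 0 to 1 when 1 library was left out. Over all genes 15 were called (6 higher, 9 lower). The count was 34 with a pseudocount of 0.1 FPKM (24 and 10), 5 with no filter (0 and 5), 23 at a mean of at least 5 FPKM (14 and 9), 161 after median-of-ratios scaling (95 and 66), 236 after quantile normalization (131 and 105), 149 with TPM rescaling (56 and 93) and 5 with no intensity trend (2 and 3). With each library left out in turn it ran from 2 (without wild type replicate 1 or 2) to 89 (without cKO replicate 1), and it was 74 without cKO replicate 3, 4 without cKO replicate 2 and 6 without wild type replicate 3. With a replicate block 2 genes were called and Asns had an adjusted p of 0.0720 (limma). The labels do not say whether same-numbered libraries were paired. In their deviations from the group means, same-numbered libraries correlated at -0.01 to 0.07 and differently numbered ones at -0.07 to 0.03. With 3 libraries in each group these correlations cannot decide whether the libraries were paired. Of the 9 tested members 5 were higher in every cKO library than in any wild type library (15.5% of all tested genes), and 2 with TPM rescaling (4.83%); Slc7a3, not tested, was higher on both scales. The log2 fold change of Slc38a2, -0.01, ran from -0.094 (without cKO replicate 3) to 0.033 (without cKO replicate 2) with 1 library left out and was above 0 in 3 of these 6 fits, and no member but Asns was called in any alternative. TPM rescaling moved the median of all genes to -0.12, against 0.08 as deposited. The 4 within-library ratios kept their direction in the 7 alternatives run on each, and Slc7a1 over Slc7a3 went from -2.07 to -1.04 with a pseudocount of 0.1 FPKM. The causes were not tested. At 5 steps in 3 wild type libraries, depth limits Slc7a3.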
